A study of Mus musculus with 9 samples.

Results

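The enzymes that make and break down polyamines, with the proteins that control the first of them, were followed in the tibialis anterior of the mouse, a muscle at the front of the shin made mostly of fast fibres. The 10 genes were taken by name and by role: Odc1, Amd1, Srm and Sms for synthesis, Smox and Paox for oxidation, Sat1 for acetylation, Oaz1 and Oaz2 for antizymes and Azin1 for the antizyme inhibitor. All 10 were among the 14300 protein-coding genes listed in both deposited tables. RNA came from male C57BL/6J mice with no transgene or mutation named, in 3 groups of 3 libraries: Control, ORX (orchiectomised, the testes removed) and ORX+DHT (orchiectomised and given the androgen dihydrotestosterone), all taken 4 weeks after treatment. The control columns are headed sham in the tables and Control in the labels. The animals' age, the dose and route of dihydrotestosterone, and whether a library is 1 animal or a pool are not given in the sources used here. The labels call the libraries biological replicates. Every p-value below weighs a group difference against the spread between libraries, estimated with help from the other tested genes.

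Polyamines are small, positively charged molecules that bind RNA, DNA and membranes and are needed for growth and translation. Ornithine decarboxylase (Odc1) makes putrescine from ornithine, S-adenosylmethionine decarboxylase (Amd1) makes the aminopropyl donor, and spermidine synthase (Srm) and spermine synthase (Sms) use that donor to make spermidine and then spermine. Spermine oxidase (Smox) turns spermine back into spermidine, while Sat1 acetylates spermidine and spermine for export or for oxidation by Paox. Antizymes (Oaz1, Oaz2) bind Odc1 protein and send it to the proteasome, and the antizyme inhibitor (Azin1) takes antizyme away from it. Odc1 and Amd1 are known as androgen-responsive genes in several rodent tissues, including skeletal muscle.

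Levels are given as normalised counts, which are reads divided by 1 size factor per library, here computed jointly for all 9 libraries. The libraries held 1340209 to 1682235 reads over the listed genes, and replicates differed by more than counting noise in every group. Control replicate 1 stood apart. Its chi-square per gene against the other control libraries, a measure that is 1 where 2 libraries differ by counting alone, was 12.8 and 13.2, and the other 7 pairs of replicates gave 1.82 to 3.37. It was also the highest control library for 8 of the 10 genes (all but Paox and Oaz2). Values of single members that moved by over 1.5 times or changed sign without it are given both ways. Muscle fibre markers were abundant in every library, with a summed normalised count of 262618 to 305469 in Control, 214608 to 229778 in ORX and 236616 to 254911 under ORX+DHT.

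Together the 10 genes held less of the RNA after orchiectomy. They took 0.201%, 0.170% and 0.140% of the reads in the 3 Control libraries, 0.0868%, 0.0851% and 0.0904% in ORX, and 0.199%, 0.208% and 0.193% in ORX+DHT. Every ORX library lay below every library of the other 2 groups. The summed normalised count of the 10 genes was 3366, 2577 and 2085 in Control, 1210.3, 1199 and 1258 in ORX, and 2906, 3059.8 and 2875 in ORX+DHT, and most of the difference lay in Amd1 and Smox. In bulk muscle, fewer cells of a type and less RNA per cell cannot be told apart.

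The 3 members with the largest changes after dihydrotestosterone were Amd1, Smox and Odc1, and the DNA just before their start sites is shown for that reason. RefSeq start sites on GRCm38.p6 were found for 8 of the 10 genes, not for Srm and Azin1. The sequences run 5′ to 3′ on the gene's own strand, within the 250 bases before the start site, and leave out bases inside an annotated exon. Capitals mark GC boxes (GGGCGG, or CCGCCC for the other strand), the core of the site bound by Sp1.

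Odc1 (chr12:17544623-17544793, plus strand): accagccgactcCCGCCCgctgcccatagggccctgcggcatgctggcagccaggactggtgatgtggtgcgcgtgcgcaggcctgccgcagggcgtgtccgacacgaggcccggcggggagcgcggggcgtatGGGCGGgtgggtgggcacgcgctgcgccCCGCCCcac

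Amd1 (chr10:40302189-40302438, minus strand): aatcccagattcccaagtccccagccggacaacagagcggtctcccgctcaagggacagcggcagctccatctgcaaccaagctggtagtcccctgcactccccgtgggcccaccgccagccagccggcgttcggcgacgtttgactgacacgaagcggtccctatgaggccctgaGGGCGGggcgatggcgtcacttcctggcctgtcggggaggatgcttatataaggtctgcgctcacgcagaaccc

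Smox (chr2:131491654-131491763, plus strand, between annotated exons): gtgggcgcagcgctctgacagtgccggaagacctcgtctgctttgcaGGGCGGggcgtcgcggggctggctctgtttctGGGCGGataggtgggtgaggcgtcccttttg

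Over the full 250 bases before the start site, GC boxes were found 4 times for Odc1, 1 time for Amd1 and 6 times for Smox. These counts include bases inside annotated exons of the gene: 79 of the 250 for Odc1, 0 for Amd1 and 140 for Smox. Of 32851 windows of this length, 32.7% hold at least 1 GC box. Among members with smaller or no called changes, Sat1 held 2, Oaz2 3, Oaz1 0, and the windows of Sms 0 and 4 and of Paox 1 and 3. The androgen receptor's element is a pair of 6-base arms, AGAACA and TGTTCT, set 3 bases apart. Neither the full element nor a single TGTTCT (either strand) was in any of these 3 windows. That arm is in 16.1% of all windows and the full element in 0.00913%. An E-box (CACGTG, the Myc site), in 6.02% of all windows, was also in none of the 3. Among the other members with a window, Sat1 and Oaz2 each held 1 TGTTCT arm, and 1 of the Sms windows held 1 E-box. These are matches of letters in short windows and describe no binding.

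Orchiectomy was followed by a fall of 2 of the 8 members that could be tested, Amd1 and Smox, with levels in ORX 0.263 and 0.257 times those in Control. A gene was tested where its mean deposited value was at least 10, and called at a limma adjusted p (Benjamini-Hochberg, over all tested genes) under 0.05. Among all 8631 tested genes, 0.0579% were called in ORX against Control. Of the 8 members, 2 had a higher and 6 a lower estimate in ORX, with a median log2 fold change of -0.31, where the median over all tested genes was -0.0077. Without Control replicate 1, every member's estimate but that of Oaz2 moved up. Oaz1 then changed sign (0.12), and the median of the members was less negative. Fold changes against ORX, and of ORX against Control, were taken from log2(value + 1) within the authors' own tables, and those of ORX+DHT against Control from the joint scale. Adding 1 before the logarithm shrinks the change of scarce genes.

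Dihydrotestosterone in orchiectomised mice was followed by a rise of 4 of the 8 tested members: Amd1, Smox, Odc1 and Sms. Of 8770 genes tested in ORX+DHT against ORX, 4.08% were called. Amd1 and Smox had the lowest and the next lowest p of all these genes, Odc1 ranked 21 and Sms 237. Of the 8 members, 6 had a higher and 2 a lower estimate in ORX+DHT, with a median log2 fold change of 0.38 beside 0.0062 over all tested genes. No member was called in ORX+DHT against Control, beside 0.0349% of 8595 tested genes; 2 members (Odc1 and Amd1) had an unadjusted p under 0.05, and edgeR and DESeq2 called 0 members. The median of the 8 members there was 0.13, against -0.0051 for all tested genes. Without Control replicate 1, every member's estimate there but that of Oaz2 moved up, and so did their median. The comparisons with ORX share the same 3 ORX libraries, and those with Control the same 3 Control libraries, so they are not independent of each other.

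**Figure D1:**
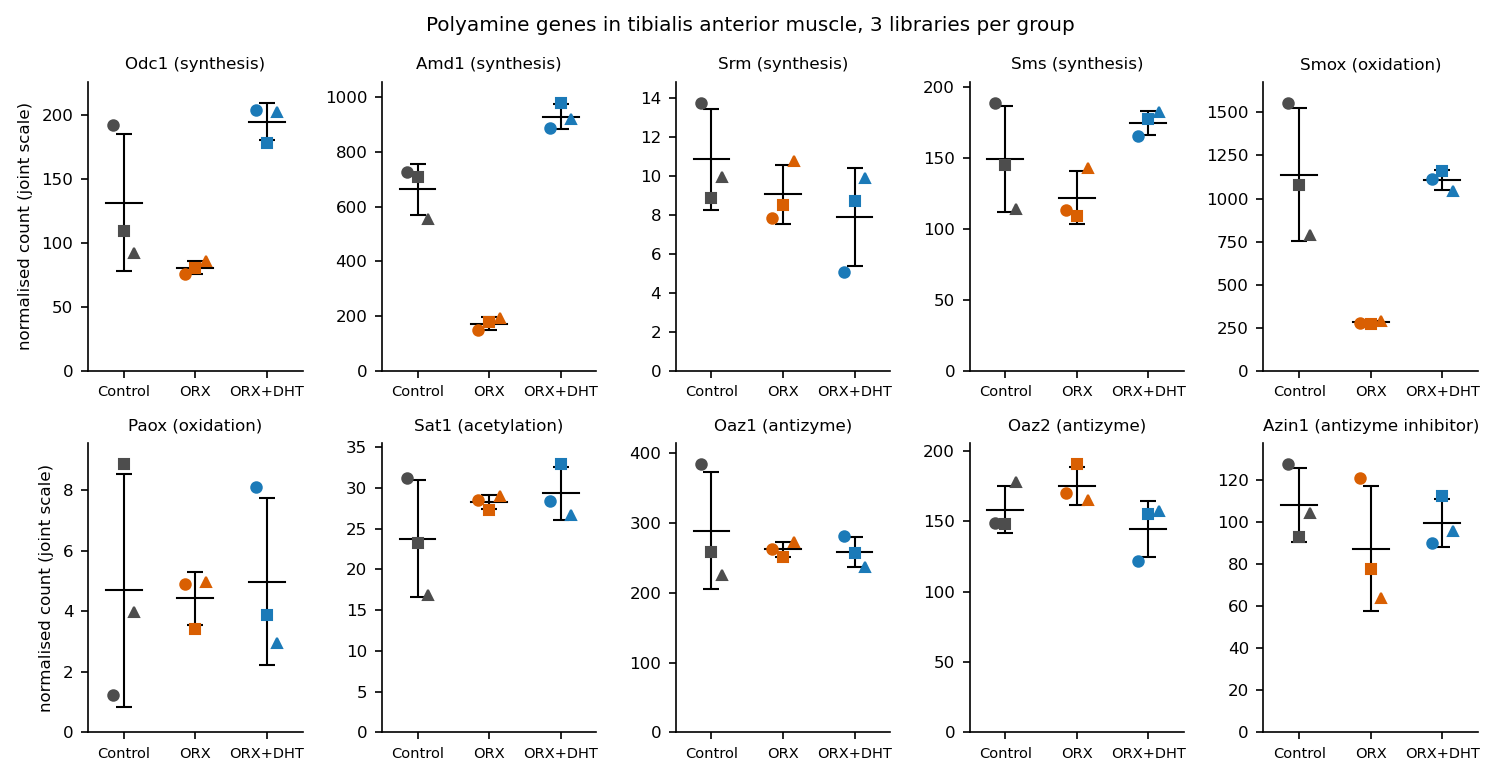
Normalised counts on the joint scale (vertical axes, each from 0) of the 10 genes in Control, ORX and ORX+DHT; symbols are libraries (circle, square and triangle for replicates 1, 2 and 3), the horizontal line is the mean and the bar 1 SD (n = 3). The ORX libraries of Amd1 (148 to 192) and Smox (273 to 292) lie below every library of the other groups, while the 3 groups of Oaz1, Sat1 and Azin1 overlap.

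Odc1 (ENSMUSG00000011179, chr12:17544794-17551505, plus strand) makes the first committed step of the pathway. Its normalised counts were 192, 109 and 92.4 in Control, 75.6, 80.2 and 86.0 in ORX, and 204, 178 and 203 in ORX+DHT. All ORX libraries lay below all Control libraries by a small margin, and the ORX+DHT libraries overlapped only Control replicate 1. The log2 fold change in ORX against Control was -0.63 (95% interval -1.16 to -0.10, limma adjusted p 0.675), and without Control replicate 1 it was -0.32 (limma adjusted p 0.462). Odc1 rose 2.40-fold in ORX+DHT against ORX, or by 1.26 on the log2 scale (SE 0.115, limma adjusted p 1.59e-06). ORX+DHT against Control gave 0.63 (95% interval 0.11 to 1.15, limma adjusted p 0.736). Without Control replicate 1 that value was 0.94, with a limma adjusted p of 0.00125. Of the 50-base windows of its transcript, 42.2% also occur in 15 other annotated genes, so some of its reads may not be assignable to it alone.

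Amd1 (ENSMUSG00000075232, chr10:40287458-40302186, minus strand) supplies the aminopropyl donor for spermidine and spermine. Its normalised counts were 725, 707 and 555 in Control, 148, 179 and 192 in ORX, and 889, 978 and 918 in ORX+DHT. No group overlapped another. Amd1 fell by 1.93 on the log2 scale in ORX against Control (SE 0.163, limma adjusted p 0.000796), the lowest p among the tested genes. It rose by 2.42 on the log2 scale in ORX+DHT against ORX (SE 0.0996, limma adjusted p 5.94e-11), which is 5.37-fold. The ORX+DHT mean of 928 ± 45.7 normalised counts was above the Control mean of 662 ± 93.3 (SD, n = 3), a log2 fold change of 0.50 (95% interval 0.18 to 0.81, limma adjusted p 0.689). Without Control replicate 1 that difference was 0.57 and had a limma adjusted p of 0.0118.

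Amd2 (ENSMUSG00000063953), a second S-adenosylmethionine decarboxylase gene with a single exon, lies on the same chromosome at chr10:35708675-35711892. It shares 86.1% of the 50-base windows of Amd1, and 87.6% of the Amd1 windows are found somewhere outside that gene. How reads that match both were counted is not given in the sources used here. Amd2 stood at 16.2, 21.0 and 12.9 normalised counts in Control, 5.89, 5.12 and 4.14 in ORX, and 35.5, 21.3 and 32.6 in ORX+DHT. The ORX libraries were again the lowest, on 5 to 6 reads each. Amd2 rose by 2.34 on the log2 scale in ORX+DHT against ORX (limma adjusted p 8.42e-05). Its log2 fold change between ORX and Control was -1.54 (limma adjusted p 0.257). Amd1 had 40.4 ± 5.96 times the reads of Amd2 in Control, 35.5 ± 10.6 in ORX and 33.1 ± 11.3 under ORX+DHT (SD, n = 3), and these ratios overlapped. With the reads of both genes summed, the log2 fold change was -1.92 in ORX against Control (limma adjusted p 0.000744) and 2.43 in ORX+DHT against ORX (limma adjusted p 5.96e-11).

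Srm (ENSMUSG00000006442, chr4:148591503-148594993, plus strand) and Sms (ENSMUSG00000071708, chrX:157443855-157492287, minus strand) are the 2 aminopropyl transferases. Srm was scarce, with 5 to 13 reads a library, and did not pass the filter on low values. Its normalised counts were 13.7, 8.85 and 9.93 in Control, 7.85, 8.53 and 10.8 in ORX, and 5.07, 8.70 and 9.88 in ORX+DHT, and the groups overlapped. A change of the size seen in Sms would not be detectable at this depth: the 95% interval of its log2 fold change in ORX+DHT against ORX ran from -1.01 to 0.58. Sms stood at 189, 145 and 114 in Control, 113, 109 and 143 in ORX, and 165, 177 and 182 in ORX+DHT. The ORX+DHT libraries of Sms all lay above the ORX libraries, and both groups overlapped Control. Sms rose 1.44-fold in ORX+DHT against ORX (log2 fold change 0.53, 95% interval 0.27 to 0.78, limma adjusted p 0.0148). That call was lost without ORX replicate 1 or 2 (limma adjusted p 0.0537 and 0.0952) or ORX+DHT replicate 2 or 3 (0.0591 and 0.0610), with all 9 libraries in 1 fit (0.262) and in DESeq2 (0.0690). In ORX against Control its log2 fold change was -0.27 (limma adjusted p 0.788), and -0.09 without Control replicate 1.

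Smox (ENSMUSG00000027333, chr2:131491496-131525922, plus strand), the spermine oxidase, was the most abundant member per kb of transcript in Control and ORX+DHT. Its normalised counts were 1554, 1077 and 786 in Control, 279, 273 and 292 in ORX, and 1115, 1158 and 1043 in ORX+DHT. The ORX libraries lay close together and far below the others, and ORX+DHT lay within the wide range of Control. Smox fell by 1.96 on the log2 scale in ORX against Control (SE 0.212, limma adjusted p 0.00516). The size of this fall was -1.94 to -1.99 when any 1 ORX library was left out, but the call was lost each time (limma adjusted p 0.0900, 0.0956 and 0.0502 without ORX replicate 1, 2 and 3). Without Control replicate 1 it was -1.71, with a limma adjusted p of 3.93e-06. Smox rose 3.92-fold in ORX+DHT against ORX (log2 fold change 1.97, SE 0.0817, limma adjusted p 5.94e-11). ORX+DHT against Control gave 0.01 (0.26 without Control replicate 1), with a 95% interval of -0.45 to 0.47 that holds differences of either sign. None of its 50-base transcript windows was found in another gene.

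Paox (ENSMUSG00000025464, chr7:140115799-140137224, plus strand), the oxidase of acetylated polyamines, had only 1 to 8 reads counted in a library. Its normalised counts were 1.25, 8.85 and 3.97 in Control, 4.91, 3.41 and 4.96 in ORX, and 8.11, 3.87 and 2.96 in ORX+DHT. These values overlapped in all groups, did not pass the filter and allow no comparison at this depth. Sat1 (ENSMUSG00000025283, chrX:155213132-155216449, minus strand), the acetyltransferase that feeds Paox, stood at 31.2, 23.2 and 16.9 in Control, 28.5, 27.3 and 29.0 in ORX, and 28.4, 32.9 and 26.7 in ORX+DHT. Its ORX libraries lay inside the range of Control. The log2 fold change of Sat1 was 0.28 in ORX against Control (limma adjusted p 0.818; 0.49 without Control replicate 1) and 0.05 in ORX+DHT against ORX (95% interval -0.37 to 0.46, limma adjusted p 0.952).

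The antizymes showed no called change. Oaz1 (ENSMUSG00000035242, chr10:80826656-80829290, plus strand) stood at 383, 258 and 224 normalised counts in Control, 263, 251 and 272 in ORX, and 281, 256 and 237 in ORX+DHT. Its groups overlapped throughout, with Control replicate 1 above the other 8 libraries. The log2 fold change of Oaz1 in ORX+DHT against ORX was -0.02 with a 95% interval of -0.23 to 0.18, so a change as large as that of Sms or Odc1 lies outside the interval. In ORX against Control it was -0.10 (95% interval -0.52 to 0.32), and 0.12 without Control replicate 1. Oaz2 (ENSMUSG00000040652, chr9:65668001-65690300, plus strand) stood at 149, 148 and 178 in Control, 170, 190 and 165 in ORX, and 122, 155 and 157 in ORX+DHT. The ORX+DHT libraries of Oaz2 were all below the ORX libraries, with a log2 fold change of -0.28 (95% interval -0.53 to -0.03, limma adjusted p 0.279) that did not pass the test and was -0.16 without ORX+DHT replicate 1. The Oaz1 transcript shares 52.2% of its 50-base windows with the pseudogene Oaz1-ps.

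Azin1 (ENSMUSG00000037458, chr15:38487427-38519266, minus strand), which frees Odc1 protein from antizyme, stood at 127, 92.9 and 104 in Control, 121, 77.6 and 63.7 in ORX, and 90.2, 112 and 95.8 in ORX+DHT. ORX replicate 1 lay with the Control libraries and the other ORX libraries below them. The log2 fold change of Azin1 was -0.35 in ORX against Control (limma adjusted p 0.765) and 0.23 in ORX+DHT against ORX (limma adjusted p 0.638). These values rested on single libraries: the first was -0.22 without Control replicate 1 and ranged from -0.60 to -0.15 over the libraries left out, and the other was 0.49 without ORX replicate 1 and 0.03 without ORX replicate 3. Against Control, ORX+DHT gave log2 fold changes of 0.25 for Sms, 0.33 for Sat1, -0.13 for Oaz1, -0.13 for Oaz2 and -0.11 for Azin1, with limma adjusted p from 0.773 to 0.884. Without Control replicate 1, the values there were 0.44 for Sms, 0.54 for Sat1, 0.098 for Oaz1 and 0.0081 for Azin1. Azin1 shares 358 exonic bases with the antisense gene Gm49077. The library kit keeps the strand, but whether the counting used it is not given in the sources used here.

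**Figure D2:**
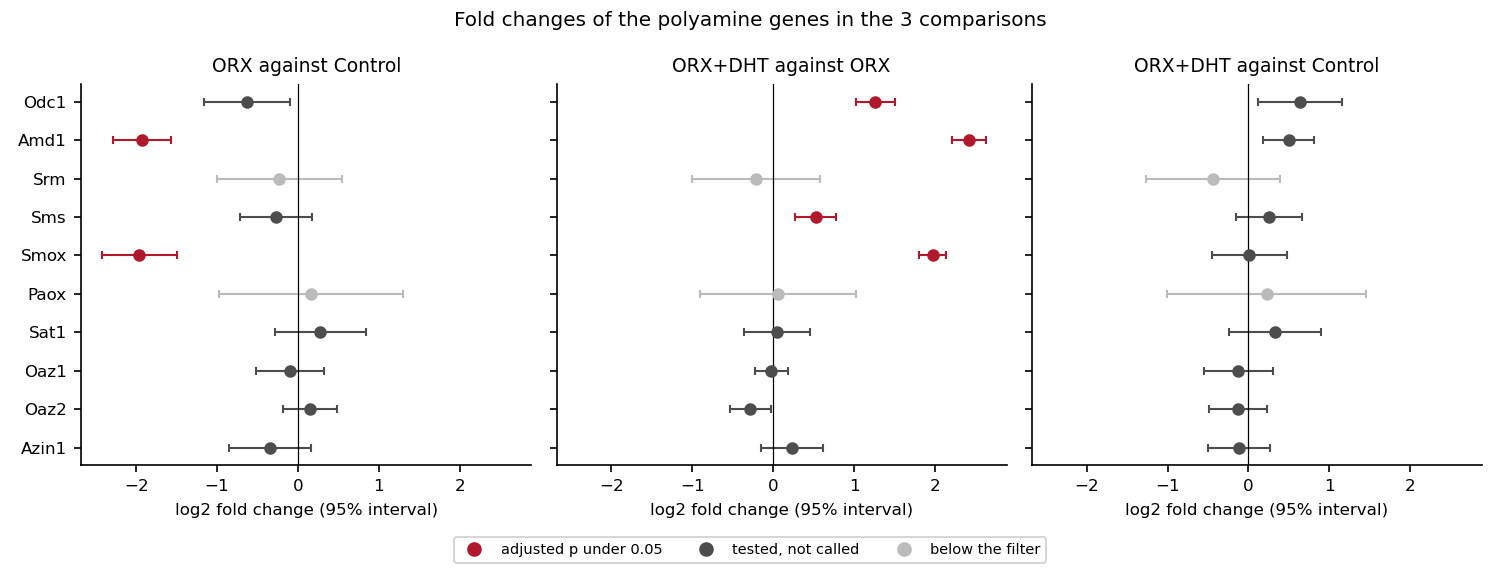
Log2 fold changes (horizontal axes) of the 10 genes in the 3 comparisons, with bars for the 95% interval of the limma fit; red points had an adjusted p under 0.05, dark points were tested and not called, and pale points (Srm and Paox) did not pass the filter on low values. Amd1 and Smox lie at -1.93 and -1.96 in the left panel and at 2.42 and 1.97 in the middle one, and the intervals of Oaz1 cross 0 in every panel.

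Levels of different genes were compared per kb of the longest protein-coding transcript. In Control, the mean normalised count per kb was 495 for Smox, 269 for Oaz1, 207 for Amd1, 85.8 for Oaz2, 59.5 for Odc1, 40.1 for Sms, 22.2 for Azin1, 20.5 for Sat1, 8.10 for Srm and 1.01 for Paox. The SD of Oaz1 (78.2) exceeded its gap to Amd1, the SD of Odc1 (24.2) its gap to Sms, and the SD of Sat1 (6.18) its gap to Azin1. In ORX, Oaz1 led with 245, followed by Smox with 122, Oaz2 with 94.9, Amd1 with 54.0, Odc1 with 36.5, Sms with 32.7, Sat1 with 24.3, Azin1 with 17.9, Srm with 6.76 and Paox with 0.951. The SD of Sms (5.01) exceeded its gap to Odc1 there. In ORX+DHT the order was Smox at 481, Amd1 at 289.7, Oaz1 at 241, Odc1 at 88.2, Oaz2 at 78.4, Sms at 47.0, Sat1 at 25.2, Azin1 at 20.4, Srm at 5.89 and Paox at 1.07. Odc1 and Oaz2 differed there by less than the SD of Oaz2 (10.8). The antizyme Oaz1 was thus above Smox and Amd1 per kb in ORX and below both in ORX+DHT. Its place above Smox in ORX rested on the division by length. The mean normalised counts there were 281 for Smox, 262 for Oaz1 and 173 for Amd1. Other places also changed with the division by length. In ORX, Oaz2 stood at 175 normalised counts, beside the 173 of Amd1. In Control, the mean normalised counts were 288 for Oaz1 and 662 for Amd1, and 131 for Odc1 and 149 for Sms.

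The balance of roles was described as each role's share of the summed signal per kb in a library, which does not depend on library scaling. Antizymes held 28.4%, 28.0% and 32.6% in Control, 53.9%, 54.0% and 52.4% in ORX, and 25.7%, 24.5% and 24.8% in ORX+DHT. Oxidation, almost wholly Smox, held 43.9%, 41.0% and 36.5% in Control, 19.5%, 19.1% and 19.6% in ORX, and 38.2%, 38.3% and 36.7% in ORX+DHT. Neither share of an ORX library overlapped another group. Synthesis held 24.3%, 27.5% and 27.0% in Control, 18.6%, 20.5% and 22.2% in ORX, and 32.8%, 33.4% and 35.1% in ORX+DHT, with no overlap among the 3 groups. Acetylation (Sat1) held 1.68 ± 0.112% in Control, 3.83 ± 0.0773% in ORX and 1.97 ± 0.153% under ORX+DHT (SD, n = 3), although the level of Sat1 itself was not called in any comparison. The antizyme inhibitor held 1.88 ± 0.349%, 2.84 ± 1.01% and 1.60 ± 0.147%, and its Control and ORX values overlapped. Shares sum to a fixed total, so a fall of Smox and Amd1 raises every other share.

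**Figure D3:**
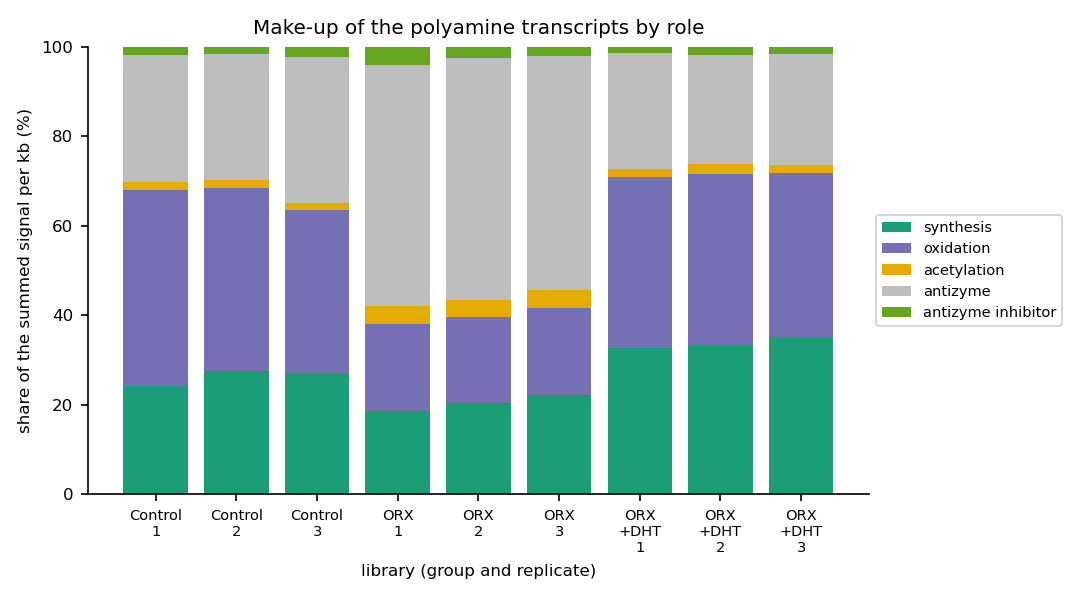
Share of the summed normalised count per kb of the 10 genes (vertical axis, %) held by each role in each of the 9 libraries (horizontal axis). The grey antizyme segment is 52.4% to 54.0% in the ORX libraries and 24.5% to 32.6% in the others, and the purple oxidation segment is 19.1% to 19.6% in ORX.

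The choice of length moved these shares but not their order across groups for antizymes. With merged exons as the length, antizymes held 22.6% in Control, 45.1% in ORX and 18.3% under ORX+DHT, and with no division by length 16.9%, 35.8% and 13.7%. Ratios of normalised counts per kb between genes within a library need no library scaling, but their size depends on the length used. The ratios here used the longest protein-coding transcript. Odc1 stood to the sum of Oaz1 and Oaz2 as 0.163 ± 0.0319 in Control, 0.107 ± 0.00605 in ORX and 0.277 ± 0.0252 under ORX+DHT (SD, n = 3), with no overlap among the groups. Odc1 to Azin1 was 2.63 ± 0.689 in Control and 2.21 ± 0.801 in ORX, which overlapped. Under ORX+DHT it was 4.38 ± 0.780, above both. The ratio of Smox to Sms, the enzymes that remove and make spermine, was 12.2 ± 1.11, 3.78 ± 0.415 and 10.3 ± 0.863 in the same order of groups. For Amd1 to Odc1 it was 3.73 ± 0.991, 1.48 ± 0.108 and 3.31 ± 0.423, with each ORX library below all others. Amd1 to Smox was 0.438 ± 0.0908 in Control and 0.441 ± 0.0518 in ORX, which overlapped, and 0.603 ± 0.0297 in ORX+DHT, which lay above both.

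Profiles over the 9 libraries were compared by the root mean square difference of log2(value + 1) after each gene's own mean was removed, among 3788 genes with a mean of at least 50. Amd1 and Smox differed by 0.28 by this measure, beside their own spreads of 1.05 and 0.96 around their means. Amd1 lay nearest to Mettl21c (0.34), St3gal5 (0.37) and Fkbp5 (0.37) among non-members, and Smox to Mettl21c (0.28), St3gal5 (0.39) and Dupd1 (0.40). Mettl21c stood at 205 ± 99.1 normalised counts in Control, 38.0 ± 4.78 in ORX and 215 ± 32.6 under ORX+DHT (SD, n = 3). Odc1 lay nearest to Asb5 (0.13), Mgst3 (0.19) and Ppp1r14b (0.19), of which Asb5 stood at 332 ± 121, 215 ± 4.48 and 438 ± 13.1. This likeness is a description over 9 libraries in 3 groups.

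The genes around the pathway were taken from lists. Of 47 genes in 5 lists (supply of ornithine, arginine and proline; the methionine and methylthioadenosine cycle; other polyamine enzymes; transport; and the hypusine pathway, which uses spermidine to modify Eif5a), 25 could be tested. None was called by limma in ORX against Control, where 2 of the 25 had an unadjusted p under 0.05 (Amd2 and Mat2a), or in ORX+DHT against Control, where 1 had (Amd2); edgeR and DESeq2 also called 0 in both. Amd2, Mat2a and Gpc1 were called in ORX+DHT against ORX, all 3 higher, which is 3 of 25 genes where 4.08% of all tested genes were called. In that comparison edgeR called the same 3 and DESeq2 only Mat2a, giving Amd2 no adjusted p. The median log2 fold changes of the 25 genes were -0.16 between ORX and Control, 0.15 between ORX+DHT and ORX, and 0.03 between ORX+DHT and Control.

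Mat2a, which makes the S-adenosylmethionine that Amd1 uses, stood at 387, 370 and 396 in Control, 293, 293 and 310 in ORX, and 472, 466 and 364 in ORX+DHT. Every ORX library was below every library of the other groups. Mat2a rose by 0.53 on the log2 scale in ORX+DHT against ORX (limma adjusted p 0.00462, and 0.0555 with all 9 libraries in 1 fit). Its log2 fold change between ORX and Control was -0.37 (limma adjusted p 0.669). Gpc1, a heparan sulphate proteoglycan linked to polyamine uptake, stood at 491, 651 and 575 in Control, 478, 541 and 526 in ORX, and 673, 642 and 645 in ORX+DHT. It rose by 0.34 on the log2 scale in ORX+DHT against ORX (limma adjusted p 0.0206), a call lost with all 9 libraries in 1 fit (0.331), in DESeq2 (0.0716) and without ORX replicate 1 or any 1 of the ORX+DHT libraries (highest 0.117).

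The rest of the methionine cycle list held 10 tested genes with no call, of which Got1 (log2 fold change 0.15, limma adjusted p 0.437) and Adi1 (0.26, limma adjusted p 0.454) had the lowest p in ORX+DHT against ORX. In the supply list 4 of 12 genes were tested and none called, Oat at -0.18 (limma adjusted p 0.530) and Prodh at 0.44 (limma adjusted p 0.665) having the lowest p. Of 12 transport genes 5 were tested, and beside Gpc1 the P-type ATPases Atp13a2 (0.23, limma adjusted p 0.515) and Atp13a3 (0.25, limma adjusted p 0.557) were not called. Aoc3, an amine oxidase, stood at 0.07 (limma adjusted p 0.951). In the hypusine list Dhps, the spermidine-using enzyme, stood at -0.22 (limma adjusted p 0.710) and its substrate Eif5a at -0.04 (limma adjusted p 0.873).

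**Figure D4:**
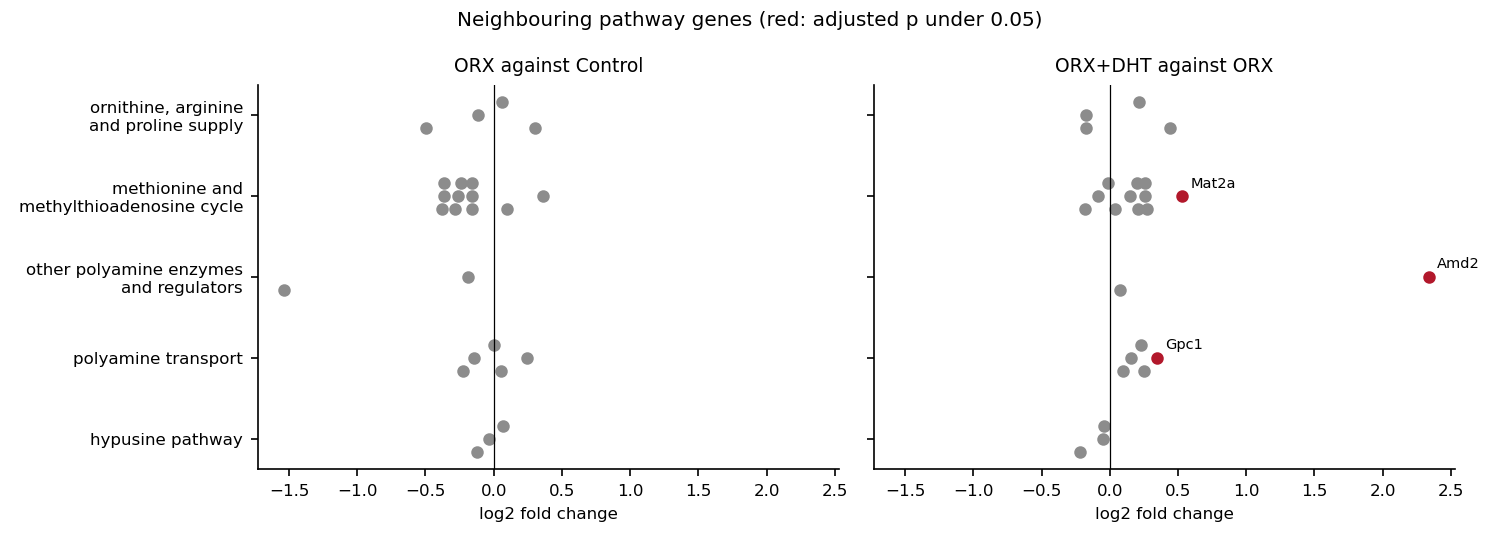
Log2 fold changes (horizontal axes) of the tested genes of the 5 pathway lists (vertical axis), with ORX against Control on the left and ORX+DHT against ORX on the right; each point is a gene, and red marks an adjusted p under 0.05. The 3 red points are Amd2 (2.34), Mat2a (0.53) and Gpc1 (0.34) in the right panel.

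Markers of other cells moved between the same groups. The summed normalised count of 5 fibroblast markers was 1352 to 2729 in Control, 2876 to 3841 in ORX and 1700.4 to 2388 under ORX+DHT, and that of 4 tendon markers 328 to 428, 443 to 730.4 and 307 to 375. Between ORX and ORX+DHT, 2 of 5 fibroblast markers fell, Col1a1 by 1.18 and Lum by 1.79 on the log2 scale. Their limma adjusted p were 2.89e-06 and 4.81e-06. The other fibroblast markers were not called, and of all 5, 4 had a lower and 1 a higher estimate. Mean normalised counts in Control, ORX and ORX+DHT were 846, 1682 and 750 for Col1a1 and 745, 1222 and 877 for Col3a1. They were 350, 398 and 377 for Dcn and 20.3, 19.2 and 17.8 for Pdgfra. Of the 3 tested tendon markers 1 fell (Fmod by 1.28, limma adjusted p 0.00205). Of 8 muscle fibre markers 2 rose (Acta1 and Myh1, each by 0.47; limma adjusted p 0.00357 and 0.00755). The other 6 were not called, and 3 of them had lower estimates in ORX+DHT: Pvalb (-0.28), Myh2 (-0.15) and Myh4 (-0.08). No fibroblast, tendon or fibre marker was at 0 in any library. Both fibre calls were lost with all 9 libraries in 1 fit (limma adjusted p 0.420 and 0.265), and that of Acta1 also without ORX replicate 2 (0.0524). Of the 34 tested genes of the 10 marker lists, limma and edgeR called 0 in ORX against Control (7 had an unadjusted p under 0.05) and DESeq2 2 (Col1a1 and Fmod). For ORX+DHT against Control all of these tools called 0, and 3 had an unadjusted p under 0.05. The summed Schwann cell markers were 94.0 to 99.3 in Control, 134.8 to 155 in ORX and 91.2 to 128 under ORX+DHT, with Sox10 at 0 in at least 1 library. Endothelial markers summed to 801 to 911 in ORX and 936 to 999 under ORX+DHT, while the ranges of those 2 groups overlapped for blood, macrophage, adipocyte, smooth muscle and satellite cell markers. Adipoq, Cidec, Lep and Plin1 (adipocyte) and Myf5 (satellite cell) were at 0 in at least 1 library. The part of these differences in the changes of Amd1, Smox, Odc1 and Sms was not tested.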

How the data were processed

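Directional polyA libraries of 9 samples were sequenced, per the labels' protocols. Per the submitters' processing notes, Trim Galore 0.6.7, HISAT2 2.2.1, featureCounts 2.0.1 and DESeq2 1.36.0 were used with build GRCm38. Annotation and counting settings are not given in the sources used here. The authors deposited 2 tables of normalised counts, a signal in which reads are divided by 1 size factor per library: Control with ORX, and ORX with ORX+DHT. In every column 100% of values were whole multiples of 1 step (tolerance 0.001), which gave back the reads; for Control replicate 3 the step is close to 1 and cannot be told from rounding. The ORX reads were identical in both tables, whose ORX values differ by a factor of 1.06. No column was left unmapped.

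Each comparison was fitted across all genes with limma 3.58.1 in R 4.3.3 (eBayes with trend) on log2(value + 1). Genes needed a mean value of 10 or more; tests were two-sided, with Benjamini-Hochberg adjustment and a threshold of 0.05. Only the 2 groups compared entered a fit. Levels, and ORX+DHT against Control, used the 14300 shared genes rescaled jointly by median-of-ratios factors. The fits were first tested on simulated counts with the same extra spread for every gene and no outlying library. That test did not imitate Control replicate 1. Coordinates, lengths and 50-base windows came from GENCODE M21 (GRCm38). Alternatives were other pseudocounts, filters and scalings, robust eBayes, all 9 libraries in 1 fit, a replicate block, edgeR 4.0.16 and DESeq2 1.42.0 on recovered reads, and each library left out. Summing Amd1 with Amd2 and the merged exon length were added after the data were seen.

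The genes, lists and naming rule were chosen with earlier results of these data known. All 10 members were named. Also named were called pathway genes, up to 2 uncalled genes of lowest p per list, and the 3 genes nearest in profile to each of Odc1, Amd1 and Smox.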

Additional observations from a re-analysis of the deposited data

How the results depend on the processing

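The fits of the 8 tested members in the 3 comparisons gave 24 results and 429 alternative values, of which 407 kept their direction and their side of the threshold. In ORX+DHT against ORX, Amd1, Smox and Odc1 were called in every fit run, with a highest limma adjusted p of 1.21e-08, 1.21e-08 and 4.87e-05 when a library was left out. Amd1 in ORX against Control was also called in each of these (highest 0.0224). Reversals were small in size: Oaz1 in ORX against Control ranged from -0.27 to 0.12 with a library left out, Oaz1 and Sat1 in ORX+DHT against ORX between -0.088 and 0.035 and between -0.035 and 0.11. For ORX+DHT against Control, Smox was -0.032 in edgeR, -0.040 in DESeq2 and -0.23 to 0.26 with a library left out, Oaz1 -0.29 to 0.098 and Azin1 -0.22 to 0.0081.

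Counts of called genes moved more. In ORX against Control, 5 became 16 with no filter, 23 with all 9 libraries in 1 fit, 28 in DESeq2 and 1 to 51 with a library left out (51 without Control replicate 1, 21 without Control replicate 3), with 1 to 2 members among them. In ORX+DHT against ORX, 358 became 123 with all 9 libraries in 1 fit, 221 in DESeq2 and 223 to 350 with a library left out, with 3 to 4 members. In ORX+DHT against Control, 3 became 6 with quantile normalisation, 11 with all 9 libraries in 1 fit, 13 in DESeq2 and 0 to 66 with a library left out, with 0 to 2 members (66 genes and 2 members without Control replicate 1). The cause was not tested.

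Whether shared replicate numbers pair the samples is not given in the sources used here. Deviations of same-numbered libraries correlated between -0.165 and 0.151, which cannot settle it. With the replicate number as a block, 5, 571 and 3 genes and 2, 4 and 0 members were called in the 3 comparisons. Between ORX and ORX+DHT every library correlated best with its own number, but only at 0.061 to 0.151. Same-numbered pairs with a Control library gave -0.165 to 0.060. Deviations from a mean of 3 libraries constrain each other, so these values cannot show pairing.

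Role shares moved with the length used. With no division by length, Control, ORX and ORX+DHT held 0.879%, 2.31% and 0.993% for acetylation, 16.9%, 35.8% and 13.7% for antizymes, 4.13%, 7.17% and 3.37% for the antizyme inhibitor and 36.0%, 31.4% and 44.3% for synthesis, and oxidation held 23.4% in ORX. With merged exons these were 1.14%, 2.85% and 1.30%, then 22.6%, 45.1% and 18.3%, then 2.38%, 3.94% and 1.95%, then 35.0%, 27.6% and 43.4%, and oxidation held 20.5% in ORX and 35.0% in ORX+DHT. Depth limits Srm, Paox and Amd2, at 1 to 35 reads a library.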
